A study of Mus musculus with 34 samples.

Results

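Gm26460, Gm25534, Gm27857, Gm23632, Gm27754 and Gm22993 are 6 predicted noncoding genes of the mouse with very short annotated transcripts; 5 of them are 126 bases long or 1 base less, and Gm22993 spans the stretch given below. They were taken by name, as genes already seen to be high in blastocysts and higher there after injection of the mutant, and are 6 of the 51734 genes listed for blastocysts; zygotes and late 2-cell embryos have 49686 listed genes, which include all 6. Early mouse zygotes had been injected with mRNA for wild-type (WT) CHK1 or for the mutant written R442Q, and single embryos were sequenced. The WT groups held 5 zygotes, 4 late 2-cell embryos and 7 blastocysts, and the R442Q groups held 6, 5 and 7. Every blastocyst had grown with a CHK1 inhibitor at 30 nM, and the labels give no inhibitor for the 2 earlier stages. Injection adds CHK1 mRNA to embryos that keep their own Chek1 gene. CHK1 is the checkpoint kinase that holds back entry into mitosis when DNA is damaged or incompletely copied. Each library was 1 embryo with all its cells together, so that a different number of cells and a different amount of RNA per cell cannot be told apart.

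The letters of all 6 genes are those of B1, an abundant short interspersed element of rodents. B1 elements descend from the 7SL RNA of the signal recognition particle, are copied by RNA polymerase III from a promoter inside the element, and spread through reverse transcription, so that very many near-identical copies lie in introns, between genes and in the untranslated parts of mRNAs. Transposable elements as a class are known to be transcribed in the cleavage-stage mouse embryo. The annotation, GENCODE M21 on the GRCm38 build, places 5 of the genes in the class miRNA and Gm22993 in the class misc_RNA. The 5 run antisense to the B1 promoter, and the first part of Gm22993, which holds the shared stretch, runs with it. The sequences of 4 of them are shown because the copies are so alike that they bear on every value given here. A script found a 26-base stretch that all 6 share, which is called the core from here on. It is printed in capitals, at positions 32 to 57 of the 5 and, as its reverse complement, at positions 71 to 96 of Gm22993, counted from 1 at the 5′ end of the transcript.
Gm26460: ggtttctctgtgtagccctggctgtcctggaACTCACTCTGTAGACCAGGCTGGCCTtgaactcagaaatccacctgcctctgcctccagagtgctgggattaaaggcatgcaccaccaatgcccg
Gm23632: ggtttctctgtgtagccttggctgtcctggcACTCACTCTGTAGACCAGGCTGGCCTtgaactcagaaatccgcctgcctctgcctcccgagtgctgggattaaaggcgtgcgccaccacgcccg
Gm27754: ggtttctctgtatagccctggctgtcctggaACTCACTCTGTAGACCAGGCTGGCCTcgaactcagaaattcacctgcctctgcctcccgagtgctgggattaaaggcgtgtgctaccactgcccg
Gm22993: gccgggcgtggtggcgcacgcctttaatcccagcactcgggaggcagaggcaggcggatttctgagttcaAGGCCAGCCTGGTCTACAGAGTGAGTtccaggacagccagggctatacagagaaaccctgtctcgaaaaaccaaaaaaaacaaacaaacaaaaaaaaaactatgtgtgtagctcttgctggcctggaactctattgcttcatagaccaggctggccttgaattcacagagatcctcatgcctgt

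Over the aligned part, the 15 pairs of genes were 92.9% to 98.4% identical. Gm26460 and Gm27754 differed by 9 substitutions, among them T58C, just outside the core, where the first letter is that of Gm26460 and positions are counted from its 5′ end. The mature miRNA mmu-miR-3470b of RefSeq (GRCm38.p6, chr16:44013885-44013905), shown with its seed, bases 2 to 8, in capitals, lies in all 6.
mmu-miR-3470b: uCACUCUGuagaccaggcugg
It reads on the same strand at positions 34 to 54 of the 5 antisense copies and on the opposite strand at positions 74 to 94 of Gm22993. None of the 6 symbols has an entry of its own in that table. Mir3470b itself, the annotated source of this miRNA, was above 0 in 1 of the 14 blastocysts, an R442Q embryo, at 5.32 FPKM. FPKM is the number of fragments per kilobase of transcript, scaled to the size of the library.

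The box B letters of an internal RNA polymerase III promoter, searched on both strands as GTTCGANNC or GTTCAANNC, are in all 6 sequences. GTTCGANNC is in Gm25534, Gm27857 and Gm27754, and GTTCAANNC is in Gm26460, Gm23632 and Gm22993. Of the 4075 annotated transcripts in the length range of the 6, 3.93% hold either form and 1.1% hold the core. These are matches of letters only.

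The genes lie on 5 chromosomes. Gm26460 (chr19:6563780-6563905, plus strand) is intergenic, 19611 bases from Nrxn2 and 5175 bases from the pseudogene AC124394.1. Gm22993 (chr11:74618260-74618513, minus strand) is intergenic too, 1092 bases from Ccdc92b and 7345 bases from Rap1gap2. The remaining 4 lie in introns of protein-coding genes. Gm25534, on chromosome 13, is in Arsb, the lysosomal arylsulfatase B, on the opposite strand. Gm27857, on chromosome 14, is in Elf1, an ETS-family transcription factor, also on the opposite strand. Gm23632 (chr10:120974301-120974425) is in Lemd3, an inner nuclear membrane protein, on the same strand. Gm27754 (chr10:26356732-26356857) is in L3mbtl3, a reader of methylated lysine, on the same strand. The hosts were low in blastocysts, and so were Ccdc92b, Nrxn2 and Rap1gap2 beside the intergenic members. Ccdc92b had medians of 0.04 FPKM in WT and 0.75 in R442Q, and Nrxn2 and Rap1gap2 were at 0 in both. AC124394.1 has no value at any stage. Median FPKM in WT and R442Q blastocysts was 2.42 and 2.32 for Elf1, 2.53 and 2.08 for L3mbtl3, 1.5 and 1.28 for Lemd3, and 0 in both for Arsb.

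Reads that lie within the stretches that such copies share cannot be placed on 1 gene with confidence. Of the 25-base stretches of Gm25534, Gm27857 and Gm23632, 100% occur in transcripts of other annotated genes, and the share is 97.1% for Gm26460, 98.0% for Gm27754 and 66.1% for Gm22993. Each gene shares such stretches with 2180 to 3210 other genes. Every value below is therefore the level that the authors' program allotted to a copy, and is uncertain as to which copy made the RNA. Strandedness is not given in the sources used here, and the SMART-seq2 and Nextera steps named in the labels do not mark strand, so transcripts of opposite orientation were not told apart.

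In blastocysts all 6 genes were above 0 in all 14 embryos, and all 6 had a higher median in R442Q than in WT embryos. The genes were chosen for this contrast, so the values that follow describe them and support no test. In 12 of the 14 blastocysts the length deduction described below exceeded the length of all 5 shortest genes. Their FPKM, ranks and shares of a library may therefore not track the amount of RNA. They cannot be set against those of Gm22993 as amounts. From the highest to the lowest the order of the medians was the same in both genotypes: Gm27754, Gm27857, Gm23632, Gm25534, Gm22993 and Gm26460. In WT embryos the ranges of Gm27754 and Gm27857, of Gm27857 and Gm23632, and of Gm22993 and Gm26460 did not overlap, while those of Gm23632, Gm25534 and Gm22993 did. In R442Q embryos each gene overlapped its neighbours in that order.

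**Figure D1:**
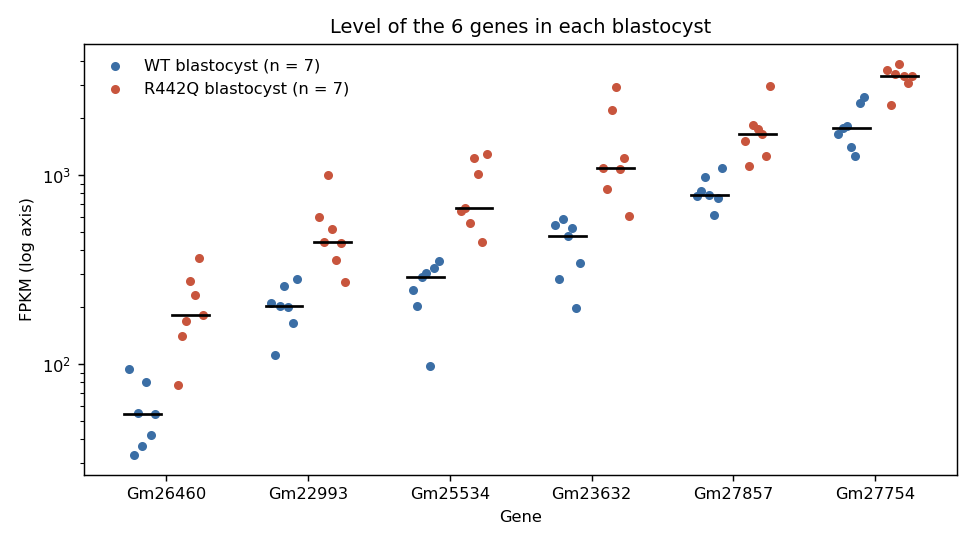
FPKM (log axis) of the 6 genes in each of 7 WT and 7 R442Q blastocysts; points are embryos and black bars are group medians. Gm25534, Gm27857 and Gm23632 show no overlap between genotypes, and the other 3 have 1 R442Q embryo inside the WT range.

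Gm27754 had the highest FPKM of the 6. Its FPKM ran from 1262 through a median of 1769.6 to 2589 in WT blastocysts, and from 2347 through 3369 to 3897 in R442Q blastocysts. R442Q replicate 2, at 2347, lay below WT replicates 6 and 7, so the groups overlapped. Among all genes its median rank was 87 in WT and 34 in R442Q embryos. The mean was 1843 ± 490.0 in WT and 3300.3 ± 488 in R442Q (SD, n = 7 each), a ratio of 1.79.

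Gm27857 ran from 617 through 786 to 1093 FPKM in WT and from 1113 through 1653 to 2968 in R442Q blastocysts. All 7 R442Q embryos lay above all 7 WT embryos, by a narrow margin at the edge. The mean was 831 ± 156 in WT and 1730.3 ± 606 in R442Q (SD, n = 7 each), a ratio of 2.08.

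Gm23632 ran from 197 through 479 to 585 FPKM in WT and from 604 through 1091 to 2946 in R442Q blastocysts. The groups did not overlap, and R442Q replicates 3 and 4, at 2226 and 2946, stood above the remaining 5. The mean was 422 ± 149 in WT and 1433 ± 839 in R442Q (SD, n = 7 each), a ratio of 3.39. Its coefficient of variation among R442Q embryos, 58.6%, was the highest of the 6, against 14.8% for Gm27754.

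Gm25534 ran from 97.8 through 291 to 350.25 FPKM in WT and from 440.34 through 670.32 to 1288 in R442Q blastocysts. Again every R442Q embryo was above every WT embryo. WT replicate 5, at 97.8, was the lowest, and R442Q replicates 4, 5 and 7 were all above 1000. The mean was 259.8 ± 86.4 in WT and 836 ± 340.3 in R442Q (SD, n = 7 each), a ratio of 3.22.

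Gm22993, the longest of the 6, ran from 111 through 204 to 281 FPKM in WT and from 273 through 443 to 996 in R442Q blastocysts. R442Q replicate 7, at 273, lay below WT replicate 7, at 281, and the other 6 R442Q embryos lay above all WT embryos. The mean was 205 ± 56.5 in WT and 518 ± 236 in R442Q (SD, n = 7 each), a ratio of 2.53. With the depth and length deduction described below, these FPKM correspond to about 160 to 601 reads in a WT embryo and 423 to 1670 reads in an R442Q embryo.

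Gm26460 was the lowest. It ran from 32.95 through 54.6 to 93.7 FPKM in WT and from 77.4 through 182 to 363 in R442Q blastocysts. R442Q replicate 1, at 77.4, lay below WT replicates 1 and 5, at 93.7 and 80.8. The mean was 56.6 ± 22.8 in WT and 205 ± 93.9 in R442Q (SD, n = 7 each), a ratio of 3.63, and its median rank among all genes moved from 2335 to 890.

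In limma's fit of log2(FPKM + 1) over 11297 genes, all 6 members passed the filter on low values, and their R442Q minus WT differences ran from 0.87 ± 0.18 (SE) for Gm27754 to 1.79 ± 0.32 for Gm26460. Gm25534 stood at 1.67 ± 0.30, Gm23632 at 1.66 ± 0.33, Gm22993 at 1.28 ± 0.26 and Gm27857 at 1.01 ± 0.20, and the median over all tested genes was -0.10. By p they held ranks 4 to 10 of all genes. None passed the threshold of 0.05: the adjusted p in limma was 0.0685 for Gm26460 and Gm25534 and 0.118 for the other 4. Only Dlg1, which is no member, passed, so that 0.00885% of tested genes were called higher in R442Q, and 4.28% were higher and 3.12% lower at an unadjusted p under 0.05; all 6 members were among the higher ones. In 3 of the 6 the genotypes did not overlap, against 0.354% of the tested genes that lay higher in R442Q without overlap. Because the contrast was used to choose the 6, nothing is read from these shares.

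WT replicate 7 stood apart in its length deduction, given below, and was the WT embryo with the highest Gm25534, Gm27857, Gm27754 and Gm22993. Without it, 5 of the 6 members passed in limma: adjusted p was 0.0365 for Gm26460, Gm25534, Gm27857 and Gm27754 and 0.0471 for Gm22993. In that fit 30 of 11025 tested genes were called, all higher in R442Q, or 0.272%. Without R442Q replicate 1, the lowest of its group for Gm26460, that gene's adjusted p was 0.0156, and 2 of 11007 genes were called, or 0.0182%. R442Q replicate 7 stood apart too, with 8189 genes at an FPKM of 1 or more against 10962 to 12182 in the other R442Q embryos, and had the highest Gm27857 and Gm25534 of its group. Without it the median difference of all tested genes moved from -0.10 to 0.00, those of Gm27857 and Gm25534 were 0.87 and 1.55, those of the other 4 were 0.86 to 1.84, and no gene passed in limma. Scaling the libraries by TMM (trimmed mean of M values) gave 0.047 for Gm26460 and Gm23632, and no other member passed; 5 of 11227 genes were called, or 0.0445%. Other alternatives raised the members' adjusted p in limma. It was 0.318 for all 6 without the filter on low values, and 0.231 to 0.252 without R442Q replicate 4. Over all alternatives the difference of each member stayed above 0, with the lowest value, 0.78, for Gm27754. Since this contrast chose the members, nothing is read from the fits in which some of them passed.

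Embryo by embryo, the members were more alike over both genotypes together than within either. Over the 15 pairs of members, Spearman's rho had a median of 0.758 across all 14 blastocysts and ran from 0.574 to 0.873, which the choice of members fixes in large part. Within the 7 WT embryos the median was 0.286, from -0.393 for Gm23632 and Gm27754 to 0.75 for Gm25534 and Gm27754. Within the 7 R442Q embryos it was 0.107, from -0.5 for Gm25534 and Gm22993 to 0.679 for Gm23632 and Gm22993. In each genotype 10 of the 15 pairs were above 0. The pairs share libraries, depth and near-identical letters.

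The 3 genes most like each member over the 14 blastocysts, by Spearman's rho among the tested genes, were 18 different genes, and no member was among them. Only Gm24303, with Gm27857 (rho 0.947), is another short gene with the core. Longer genes with the core somewhere in a transcript were 2810403D21Rik with Gm26460 (0.908), Ict1os with Gm25534 (0.916), Wipf2, an actin regulator, with Gm23632 (0.886), Gm42556 with Gm27754 (0.956) and St6galnac6, a sialyltransferase, with Gm22993 (0.924). Of the 18, 6 hold the core, 9 do not and 3 have no entry in GENCODE M21. This likeness spans both genotypes and so carries the contrast that chose the members, and nothing is read from the count. Among those without it were Tmc4 with Gm27857 (0.969), Pola2, a subunit of DNA polymerase alpha, with Gm25534 (0.921), and Fads6 with Gm27754 (0.926).

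The other short genes with the core were examined next, a class defined after the data had been seen. GENCODE M21 has 59 genes whose transcripts are under 300 bases and hold it, 52 of the class miRNA and 5 of the class misc_RNA, and all 59 are listed. Of the 53 that are not members, 9 were at 0 in every blastocyst, 39 had a higher mean and 5 a lower mean in R442Q. Of these 53, 37 passed the filter; 34 of the 37 had a difference above 0, 20 were higher at an unadjusted p under 0.05 and 0 were lower, and none passed after adjustment in limma. Their median difference was 1.0, against -0.10 for all tested genes, of which 40.7% had a difference above 0. One of them, Gm24303, lay higher in R442Q without overlap. The 53 share the core with the members, so their values are not independent of the members' values.

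**Figure D2:**
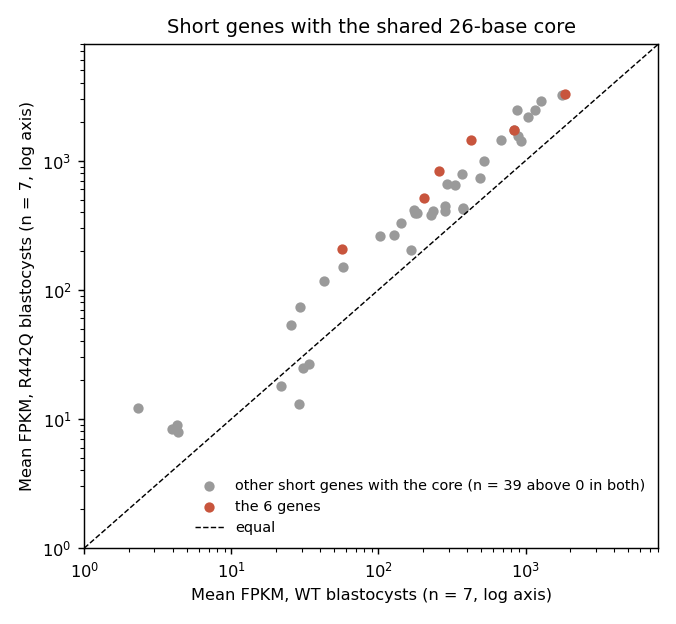
Mean FPKM in WT (x axis) and R442Q (y axis) blastocysts, both log axes, for short genes holding the core that were above 0 in both groups; each point is 1 gene, red points are the 6 genes and the dashed line marks equal means. Most points lie above the line. The red points run from Gm26460, with a WT mean of 56.6, to Gm27754, with 1843, and other genes lie lower, down to Gm22875 with 2.31.

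Apart from Gm27754, members did not have the highest FPKM of the class. Gm28017 had a median of 1640 FPKM in WT and 2428 in R442Q blastocysts, and its difference was 0.78 at an unadjusted p of 0.0611 in limma. Gm25072 had medians of 917 and 2524, with a difference of 1.26 (unadjusted p 0.000333 in limma). Gm22692 had medians of 799 and 2441, with a difference of 1.699 (unadjusted p 0.000826 in limma). The first gene of the class outside the 6 when ordered by p was Gm25535, at 1.13 and an unadjusted p of 0.000197, just behind Gm22993 at 0.000143. The summed FPKM of the 53 was 14600.3 ± 3255 in WT and 28482 ± 8487 in R442Q (SD, n = 7 each), with ranges of 11076 to 19152 and 22290.3 to 46492 that did not overlap. The 6 members summed to 0.279% to 0.428% of a library's FPKM in WT and 0.497% to 1.01% in R442Q blastocysts. All 59 took 1.29% to 2.25% and 2.65% to 5.43%.

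Short genes without the core were described in the same way. Of the 2544 listed genes in the length range of the 6 without the core, 105 passed the filter; 51 of the 105 had a difference above 0, and their median was -0.02. Of these, 9 were higher at an unadjusted p under 0.05 and 0 were lower. Of genes of 120 to 130 bases without the core, 25 passed, 9 with a difference above 0 and with a median of -0.05; 5 of the 25 were higher at an unadjusted p under 0.05 in limma and 0 lower. Among all listed genes of this narrow class, tested or not, 68 had a higher and 21 a lower mean in R442Q, and the class summed to 20134 ± 7055 FPKM over the 7 WT embryos and 31334 ± 14451 over the 7 R442Q embryos (mean ± SD), with ranges of 12090.4 to 30777 and 17061 to 55766 that overlapped. Gm37750 of this class, described below, alone ran from 9604 to 52860 FPKM over the 14 blastocysts. Genes of the class miRNA without the core gave 11 of 36 above 0 and a median of -0.05, snoRNA 8 of 16 and 0.10, snRNA 4 of 9 and -0.14, and misc_RNA 13 of 17 and 0.64. No test of the difference between these classes was made.

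Longer genes can hold the core in part of a transcript. Of those of 300 bases or more, 521 passed the filter, with a median difference of -0.05 against -0.11 for the 10216 long genes without the core. At an unadjusted p under 0.05 in limma, 64 of the 521 (12.3%) were higher in R442Q and 9 (1.73%) lower, against 3.50% and 3.24% of the long genes without the core; the difference between these shares was not tested. The share higher was 11.8% of the 271 with the core on the antisense side only and 12.5% of the 240 with it on the sense side only. None passed after adjustment. In zygotes, where edgeR called 6.3% of 12420 tested genes higher and 6.92% lower in R442Q, it called 24 of 466 long genes with the core higher (5.15%) and 31 lower (6.65%). Over all genes in zygotes edgeR called 783 higher and 860 lower, or 822 and 800 with RLE size factors in place of TMM; limma on log2(FPKM + 1), which differs in tool, input, scaling and filter together, called 411 and 1231. In late 2-cell embryos, where edgeR called 1.22% of 13883 higher and 2.95% lower, edgeR called 10 of 536 long genes with the core higher (1.87%) and 18 lower (3.36%). There the balance over all genes was 170 higher and 410 lower in edgeR, 264 and 388 in limma on log2(FPKM + 1), and 736 and 928 with DESeq2.

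In zygotes and late 2-cell embryos the 5 shortest members were listed at 0, in counts and in FPKM, in all 20 embryos. Total counts were 7183632 to 11296522 per zygote and 5727956 to 8916343 per late 2-cell embryo. At these depths 0 counts allow up to 3, or 0.266 to 0.524 CPM, the count scaled to a common library size. This limit covers counting error only, since amplified reads lack molecular identifiers and are not independent. The counts are also estimates, and the early length deductions given below, 173.2 to 198.5 bases, are longer than these 5 members. The limit therefore does not bound their RNA. In the early FPKM tables every gene of 130 bases or less was at 0. Of the 458 listed genes from the members' shortest length to 130 bases, 7 had an estimated count above 0 in some zygote and 7 in some late 2-cell embryo, and yet 0 had an FPKM above 0. Gm37750, a transcript of 129 bases without the core, shows it: its estimated counts were 3.17 to 29.25 in late 2-cell embryos with an FPKM of 0 in each, and its FPKM in blastocysts was 9604 to 52860. In blastocysts 17.3% of listed genes in this length class were above 0 in at least 1 embryo, and so were all 39 of those with the core.

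**Figure D3:**
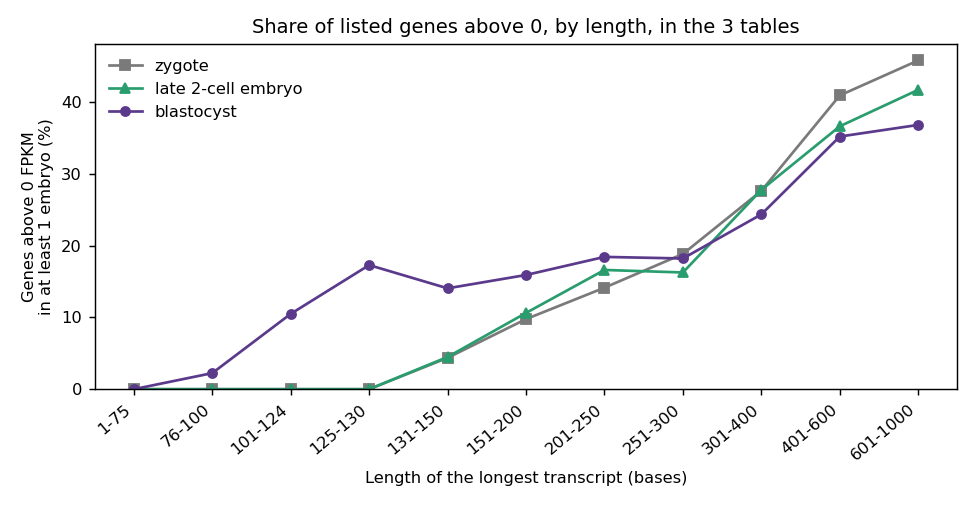
Share of listed genes above 0 FPKM in at least 1 embryo (y axis, %) by length of the longest transcript (x axis, bases), one line per table. Up to 130 bases the zygote and late 2-cell lines are at 0 while the blastocyst line reaches 17.3%, and at 601 to 1000 bases the blastocyst line is the lowest, at 36.8% against 41.7% and 45.8%.

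Gm22993, the longest, is the only member with values above 0 at the early stages. Its estimated counts in WT zygotes were 0, 3.81, 0, 0 and 0, and in R442Q zygotes, replicates 1 to 6, they were 3.01, 4.83, 1.43, 1.24, 1.04 and 0. In FPKM the highest WT zygote was at 6.57 and the R442Q zygotes had a median of 2.00 and a highest value of 9.40. In late 2-cell embryos the FPKM of WT replicates 1 to 4 was 2.63, 0, 0 and 3.18, and that of R442Q replicates 1 to 5 was 0, 6.39, 18.8, 0 and 1.82. These stand for at most 7.05 counts in any early embryo, so the groups overlapped within a few reads of 0.

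These early embryos played no part in the choice by genotype in blastocysts, and Gm22993 was compared in them over embryos. In zygotes its level was 0.0876 ± 0.196 CPM in the 5 WT embryos and 0.247 ± 0.244 CPM in the 6 R442Q embryos (mean ± SD), with an exact two-sided permutation p of 0.286, adjusted 0.492 over both comparisons. Late 2-cell embryos had a level of 0.101 ± 0.117 CPM in the 4 WT and 0.344 ± 0.491 CPM in the 5 R442Q libraries (mean ± SD), with an exact permutation p of 0.492, adjusted 0.492. A difference was not detectable at this depth. Gm22993 did not pass the filter of edgeR at either stage. The blastocyst minimum, 111 FPKM, is above the early maximum, 18.8 FPKM. Stage and table cannot be told apart, since each stage has a table of its own.

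Of the other short genes with the core, Gm25072 had at most 4.72 counts in a late 2-cell embryo, and Gm22692, Gm25960, Gm24979, Gm25735 and Gm23158 had at most 1.04 in any early embryo. The remaining short core genes were at 0 counts in all 20.

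The length deduction is the number of bases that must be subtracted from a transcript's length for low FPKM values to fall on whole reads, and was estimated for each library from the spacing of those values. It was 173.2 to 198.5 bases in zygotes and late 2-cell embryos, longer than 5 of the 6 members. In blastocysts it was 137 ± 12.9 bases in WT (SD, n = 7; 108.8 to 147.4) and 133 ± 5.18 in R442Q embryos (SD, n = 7; 122.6 to 139.2), with an exact two-sided permutation p of 0.512, adjusted 0.659 over 9 tests of library measures. It exceeded the length of all 5 shortest members in 12 of the 14 blastocysts and was under it in WT replicate 7 and R442Q replicate 4. The read numbers behind the FPKM of the 5 shortest members were therefore not recovered. The recovered depth was 12352500 to 15480000 reads per blastocyst, and the same estimate met the known totals of the early libraries with an error of at most 4.45%.

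**Figure D4:**
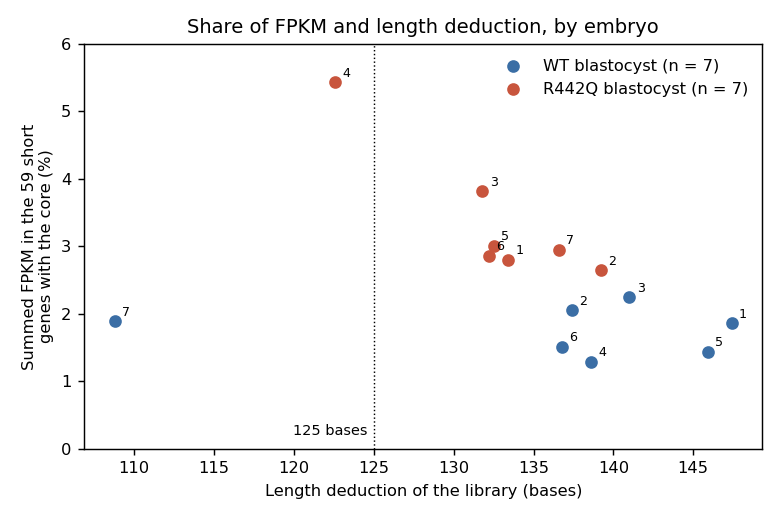
Share of a library's summed FPKM in the 59 short genes with the core (y axis, %) against the length deduction (x axis, bases) for the 14 blastocysts, numbered by replicate; the dotted line marks the length of the shortest members. R442Q points lie at 2.65% to 5.43% and WT points at 1.29% to 2.25%, and WT replicate 7 has the lowest deduction, 108.8 bases, at 1.89%.

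R442Q replicate 4 had the lowest deduction of its group, 122.6 bases, and the highest share, 5.43%. WT replicate 7 had the lowest of all, 108.8 bases, with a share of 1.89%, inside the WT range. With the deduction as a covariate in limma, chosen after the data had been seen, the members' differences were 0.78 to 1.80, and no gene passed the threshold. The part of read length or fragment length in the difference between genotypes beyond this fit was not tested.

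The machinery that makes and binds small RNAs was described from lists chosen by name. Of 24 genes of RNA polymerase III and of SNAPc, the complex that binds small nuclear RNA promoters, all 24 were tested in blastocysts; 7 had a difference above 0, 1 was higher and 1 lower at an unadjusted p under 0.05 in limma, 0 passed, and the median was -0.35. Maf1, the repressor of RNA polymerase III, had a median of 56.5 FPKM in WT and 40.8 in R442Q blastocysts, with a difference of -0.44 ± 0.32 (SE; adjusted p 0.822 in limma). Polr3g, a subunit of the polymerase found in pluripotent cells, had medians of 44.1 and 58.4, with a difference of 0.50 ± 0.30 (adjusted p 0.773 in limma).

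Of 173 named small structured RNAs, 14 passed the filter; 7 had a difference above 0, none passed the test and the median was 0.05. Rn7sk, the RNA of the 7SK particle and another RNA polymerase III transcript, had medians of 26.4 and 30.5 FPKM (0.13 ± 0.32, adjusted p 0.96 in limma), and Rpph1, the RNA of RNase P, 20.97 and 34.5 (1.30 ± 0.73, adjusted p 0.756 in limma). Of the proteins of the box C/D and H/ACA particles, 12 were tested, with 3 above 0, 2 lower at an unadjusted p under 0.05 in limma and a median of -0.30; of the spliceosomal and 7SK particle proteins 13 of 25 were above 0, with a median of 0.02. Of the snoRNA host genes 14 of 20 were above 0, with a median of 0.15. None of these passed after adjustment.

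Marker genes were read in the blastocyst libraries. All 10 trophectoderm markers were above 0 in all 14 blastocysts, with medians of 2116 FPKM for Krt8 and 2883 for Krt18, keratins of the outer layer. Of the 8 markers of the inner cells, Nanog, Pou5f1, Klf4, Tdgf1 and Utf1 were above 0 in all 14. Nanog and Pou5f1 had medians of 70.6 and 121. Sox2 and Fgf4 were above 0 in 11 and Esrrb in 12, at medians of 1.65, 3.1 and 1.91. Of 8 zygote and oocyte markers, all had a median of 0 in blastocysts and Oosp1 was at 0 in every one. Of 10 markers of cumulus cells, which surround the oocyte, Ptx3, Inhba, Foxl2 and Fshr were at 0 in every blastocyst, while Amhr2 was above 0 in 13 of the 14, at a median of 9.74 FPKM, and Star in 11, at 0.17. Of the late 2-cell markers, Eif1a had a median of 87.55 FPKM in blastocysts and the next, Gm8300, 0.34. In late 2-cell embryos their medians were 36.5 and 169, so Eif1a was not higher at the stage it was listed for. The list summed to 88.9 to 123.8 FPKM in WT and 49.8 to 86.5 in R442Q blastocysts, most of it Eif1a. Eif1a, its 1 tested gene, differed by -0.53 ± 0.17 (SE, adjusted p 0.325 in limma). The summed trophectoderm markers were 4738 to 25992 FPKM in WT and 1394 to 15833 in R442Q blastocysts, 2 of the 10 with a difference above 0, and those of the inner cell mass and epiblast 125.2 to 1347 and 93.3 to 902, with 1 of 8 above 0. Those of the primitive endoderm summed to 14.3 to 229 and 9.2 to 77.1 FPKM; 4 of the 6 were tested and 1 was above 0, Gata6 at 0.40 ± 0.34 (SE), with Sox17 at -1.80 ± 1.0. None of these markers passed in limma, and their part in the members' difference was not tested.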

How the data were processed

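The members' transcripts are 125, 126 or 254 bases long. Single mouse embryos were lysed, cDNA was made with SMART-seq2 and libraries with Tn5 and Nextera, per the labels' protocols. The authors deposited estimated counts for zygotes and late 2-cell embryos and FPKM for all 3 stages; the submitters' processing notes name RSEM and the mm10 build, and versions and options are not given in the sources used here. Counts were rounded. R 4.3.3 was used with edgeR 4.0.16 (quasi-likelihood, filterByExpr with a minimum count of 10, TMM), limma 3.58.1 (blastocysts, log2(FPKM + 1), a variance trend, FPKM of at least 1 in at least 7 embryos; fold changes on this scale understate those of low genes) and DESeq2 1.42.0 as an alternative. P-values were adjusted over all tested genes by Benjamini-Hochberg, with a threshold of 0.05. The fits were tested on simulated data. Members, lists and tests were chosen with earlier results of these data known, and the shared core and its class after seeing the sequences. Sequences and positions come from GENCODE M21 (GRCm38), which held 92.1% of the blastocyst symbols, and from RefSeq; those of Gm25534 and Gm27857 are not reported here. Genes named were the members, their overlapping or nearest genes, the 3 most alike per member, and up to 5 per list by median blastocyst FPKM; the other short core genes, Dlg1 and Gm37750 were named after their values were seen. Depth and length deduction were read from low FPKM values (0.1 or more; 230 to 2500 bases). Alternatives were the pseudocount, filter, scaling, replicate block, other tools, and each embryo left out. The labels give no batch or date.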

Additional observations from a re-analysis of the deposited data

Results flagged for a closer look

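Among 26 groups of 4 to 7 embryos, 5 had an embryo far from the others; the limit used lets chance alone set one apart in about 1 of 20 groups. Gm27857 stood at 2968 FPKM in R442Q blastocyst replicate 7, far above the next embryo of its group at 1852. Gm22993 stood at 6.57 FPKM in WT zygote replicate 2, with the other 4 WT zygotes at 0. The summed FPKM of the 59 short genes with the core was 57111 in R442Q blastocyst replicate 4, with the next R442Q embryo at 41024. The length deduction was 108.8 bases in WT blastocyst replicate 7, with the next WT embryo at 136.8. R442Q blastocyst replicate 7 had 8189 genes at an FPKM of 1 or more, with the next R442Q embryo at 10962.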

How the results depend on the processing

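In blastocysts 1 gene, not a member, passed in limma. The count was 2 with a pseudocount of 5 FPKM, 5 with TMM scaling, 0 without the filter and 0 with the length deduction as covariate, and 0 to 30 when 1 embryo was left out, the highest without WT replicate 7. Zygote counts of calls (1643 in edgeR) stayed within 1.5 times, from 1125 without WT replicate 2 to 2093 with DESeq2. Of late 2-cell calls, 580 in edgeR, there were 1664 with DESeq2, 889 without the filter and 142 to 891 when 1 embryo was left out, lowest without WT replicate 2 and highest without R442Q replicate 3. Leaving out WT replicates 1, 3 or 4 or R442Q replicate 2 gave 351, 283, 209 and 372. The causes were not tested. Replicate numbers did not pair the embryos: the deviations of same-numbered embryos correlated at -0.168 to 0.204 in blastocysts, -0.057 to 0.062 in zygotes and -0.141 to 0.204 in late 2-cell embryos. With the replicate block the counts were 0 in blastocysts, 1217 in zygotes and 58 in late 2-cell embryos, and no member passed. Of the 59 short genes with the core, 45 had a higher mean in R442Q blastocysts. The number was 45 under each of 3 other scalings and 43 to 47 when 1 embryo was left out. These counts include the 6 members, which were chosen for being higher in R442Q. Of the other 53, 39 had a higher mean, and over all listed genes 11540 had a higher and 13885 a lower mean. All 6 members had higher medians in blastocysts than at the early stages in FPKM, in TPM and by rank. They were chosen as high in blastocysts, and TPM and rank derive from the same FPKM. The 5 shortest members are listed at 0 in the early FPKM and count tables alike. Every gene of their length or shorter was at 0 in the early FPKM tables, even some with estimated counts above 0. For these 5 the comparison by stage is therefore no check of their level, and nothing is read from it. Depth limits the comparison of Gm22993 at the early stages.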
